A study of Mus musculus with 2 samples.

Results

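Small leucine-rich proteoglycans are secreted matrix proteins with a core of leucine-rich repeats, and most carry chondroitin, dermatan or keratan sulfate chains. The 10 genes described here are Dcn, Bgn, Aspn, Lum, Fmod, Kera, Prelp, Omd, Ogn and Podn, found by symbol among the 31053 genes of the count matrices, and each symbol matched 1 gene. Their transcripts were counted by droplet single-cell RNA-seq (10x Genomics 3′ chemistry) in 2 libraries of P0 mouse eye cups, each made from 3 pooled eye cups dissected free of cornea, lens and nerve. Both genotypes carry the floxed Myrf alleles. The control library is Myrf fl/fl, and the mutant library is Rx>cre Myrf fl/fl, in which the Rx promoter drives Cre in the early eye field that forms both the neural retina and the pigment epithelium behind it (RPE). The periocular mesenchyme arises outside the eye field. With 1 library per genotype there was no replicate and no test, so differences are given as ratios, intervals are 95% exact intervals that cover counting error only, and a gene was called where the libraries differed at least 2-fold.

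In the sclera, cornea, tendon and dermis these proteins bind fibrillar collagen and set how thick the fibrils grow and how far apart they lie. Decorin (Dcn), biglycan (Bgn) and asporin (Aspn) form class I of the family. Lumican (Lum), fibromodulin (Fmod), keratocan (Kera), Prelp and osteomodulin (Omd) form class II, in which keratan sulfate chains are common. Osteoglycin (Ogn), also called mimecan, belongs to class III, and podocan (Podn) to class V. Fibroblasts are the usual source. Droplet libraries also hold free RNA, released by broken cells and captured with every cell, so an abundant transcript of 1 cell type gives unique molecular identifiers (UMIs, each standing for 1 captured molecule) in cells that do not express it. The comparison made here is therefore between mesenchyme, which makes these transcripts, and cell types that should lack them, in each genotype.

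The control library held 14305 cell barcodes with 79017429 UMIs and the mutant library 12222 with 76272867. After removal of poor cells and called doublets, 12449 and 10797 cells remained, with medians of 4274 and 4820 UMIs per cell. The libraries shared 59 barcodes. They differed in sex makeup, since 888 control and 7611 mutant cells held Xist but no Y-linked UMI, and 6401 and 1507 held Y-linked but no Xist UMI. Myrf itself was measured at 226.1 CPM (UMIs per 1000000 UMIs of the class) in control and 26.6 CPM in mutant RPE-like cells, 8.50-fold lower, as the labels say. Cell classes were named from marker genes after clustering without the 10 genes, and limits of the naming were set with the clusters in view. Mesenchyme-like cells numbered 1025 (8.23% of cells) in the control and 621 (5.75%) in the mutant library.

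Several of the genes lie side by side (GRCm38, GENCODE M21). Dcn (chr10:97479609-97518143), Lum (chr10:97565128-97572703) and Kera (chr10:97606879-97613692) follow each other on the plus strand within 134.1 kb. Aspn (chr13:49544443-49567565), Omd (chr13:49582462-49592822) and Ogn (chr13:49608046-49624501) do so within 80.1 kb, inside the opposite-strand gene Cenpp, with which Aspn shares 7 exonic bases and the others 0. Prelp (chr1:133910304-133921414, minus strand) and Fmod (chr1:134037254-134048277, plus strand) are neighbours as well, and 350 exonic bases of Prelp are shared with the antisense gene Gm15851. Bgn (chrX:73483602-73495933, plus strand) and Podn (chr4:108014791-108096445, minus strand) stand alone, and Podn overlaps Scp2 without shared exonic bases.

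The neighbours on chromosome 13 are printed as the closest-set of the runs, and X-linked Bgn is set beside them for its different base composition. Each line gives the 100 bases before the RefSeq start (GRCm38.p6, plus strand), read 5′ to 3′, with capitals for CANNTG, the E-box letters that basic helix-loop-helix factors can bind and that read the same on both strands.
Aspn (chr13:49544343-49544442): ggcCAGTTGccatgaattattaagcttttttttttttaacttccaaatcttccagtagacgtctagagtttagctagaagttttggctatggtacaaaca
Omd (chr13:49582362-49582461): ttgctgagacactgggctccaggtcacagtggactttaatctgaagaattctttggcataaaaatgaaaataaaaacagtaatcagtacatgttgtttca
Ogn (chr13:49607915-49608014): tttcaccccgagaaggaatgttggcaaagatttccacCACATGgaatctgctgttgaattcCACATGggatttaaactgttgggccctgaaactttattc
Bgn (chrX:73483501-73483600): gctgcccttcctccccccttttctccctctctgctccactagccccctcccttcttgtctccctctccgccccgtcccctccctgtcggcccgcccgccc
The letters CANNTG were found 97 bases before the start of Aspn, and 63 and 39 bases before that of Ogn. They were not in the windows of Omd and Bgn. Of 32851 mouse promoter windows of the same length, 34.45% held them. The windows of Aspn, Omd and Ogn were AT-rich (35.0, 36.0 and 43.0% GC beside a median of 55.0% over all promoters), while that of Bgn was 71.0% GC. A match of letters is a description and no evidence of binding.

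Mesenchyme-like cells held most of the transcripts. Of all UMIs of the 10 genes, 72.23% in the control and 80.74% in the mutant library lay in these cells. The pericyte or mural-like cells held 7.22 and 6.01%, and an unnamed cluster with both mesenchymal and smooth muscle genes (cluster 23, led by Lypd1, Hsd11b1 and Spp1) held 7.89 and 8.05%. Dcn, which binds collagen and growth factors, was detected in 99.61% of control and 99.36% of mutant mesenchyme-like cells. When each cell was thinned to 1000 UMIs, the share was 92.0% (90.2 to 93.6) and 93.2% (90.9 to 95). In neural retina cells, which should lack the gene, the thinned share was 7.71% (7.06 to 8.40) in the control and 1.25% (1.01 to 1.54) in the mutant. Prelp and Podn did not share the mesenchymal pattern. Mesenchyme-like cells held 32.97 and 26.63% of Prelp UMIs and 44.06 and 28.16% of Podn UMIs.

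**Figure D1:**
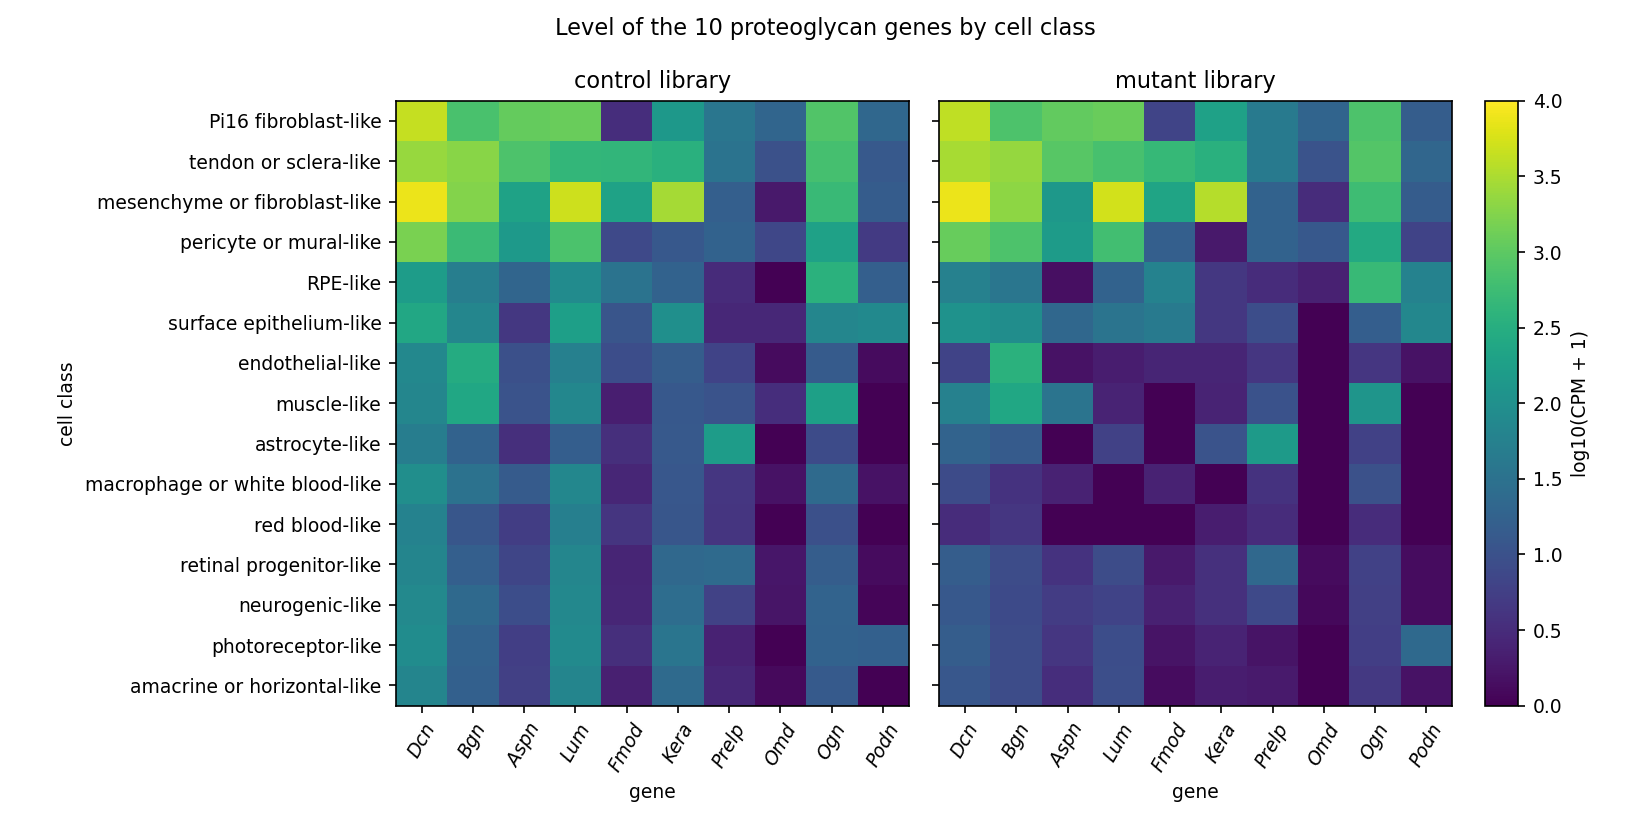
Level of each gene, as log10 of CPM plus 1, in 15 cell classes of the control library (left) and the mutant library (right), with brighter colours for higher levels. Dcn, Lum, Bgn and Aspn were brightest in the upper 4 classes in both libraries, while the lower classes were darker in the mutant for Dcn, Lum and Kera.

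Among class I genes, mesenchyme-like cells had Dcn at 4191 CPM (control) and 4710 CPM (mutant), with a log2 ratio of 0.17 (0.15 to 0.19). Bgn, which like Dcn carries chondroitin or dermatan sulfate, was at 1423 and 1747 CPM (log2 ratio 0.30, 0.26 to 0.33). Aspn, whose core binds collagen and calcium, was at 805 and 764 CPM (log2 ratio -0.08, -0.12 to -0.03). All 3 therefore differed by less than 2-fold, although in cells of up to 2000 UMIs the log2 ratios were -0.41 for Dcn, 1.14 for Bgn and 0.75 for Aspn. That of Aspn was also above 0, at 0.03, with no genes kept out of clustering.

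Among class II genes, Lum, needed for corneal clarity, was at 1623 CPM in control and 2207 CPM in mutant mesenchyme-like cells (log2 ratio 0.44, 0.41 to 0.47). Kera, the keratan sulfate proteoglycan of corneal stromal cells, was at 743 and 1214 CPM (log2 ratio 0.71, 0.67 to 0.75). These were the widest ratios of the 10 genes in this class, but that of Lum was -0.89 in cells of up to 2000 UMIs. Fmod, a regulator of collagen fibril assembly in tendon and sclera, was at 217.8 and 244.8 CPM (log2 ratio 0.17, 0.08 to 0.25). Prelp, which anchors basement membranes to connective tissue, was at 30.4 and 34.9 CPM, and Omd, best known from bone, at 11.4 and 10.3 CPM, and the intervals of both ratios included 0. Ogn of class III was at 694 and 740 CPM (log2 ratio 0.09, 0.05 to 0.14, but 1.45 in cells of up to 2000 UMIs). Podn of class V was at 15.8 and 16.2 CPM.

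Of the 10 genes, 0 were at least 2-fold lower and 0 at least 2-fold higher in mutant mesenchyme-like cells. In cells with Y-linked UMIs only, 1 was lower (Omd, log2 ratio -1.31), and in cells of up to 2000 UMIs Bgn and Ogn passed 2-fold higher, as did Omd (1.19) with cells thinned to 1000 UMIs. Over the 12988 genes with at least 20 UMIs in this class, 1.31% were at least 2-fold lower and 0.924% at least 2-fold higher. The median log2 ratio of the 10 genes was 0.17, beside -0.02 over all these genes. Of the 10 genes 8 were above 0, beside 5888 of the 12988. The sex makeup was examined for X-linked Bgn. In mesenchyme-like cells with Xist UMIs only, control Bgn was at 1468 CPM and mutant Bgn at 1835 CPM, and in those with Y-linked UMIs only at 1448 and 1682 CPM, so it was higher in the mutant within both.

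**Figure D2:**
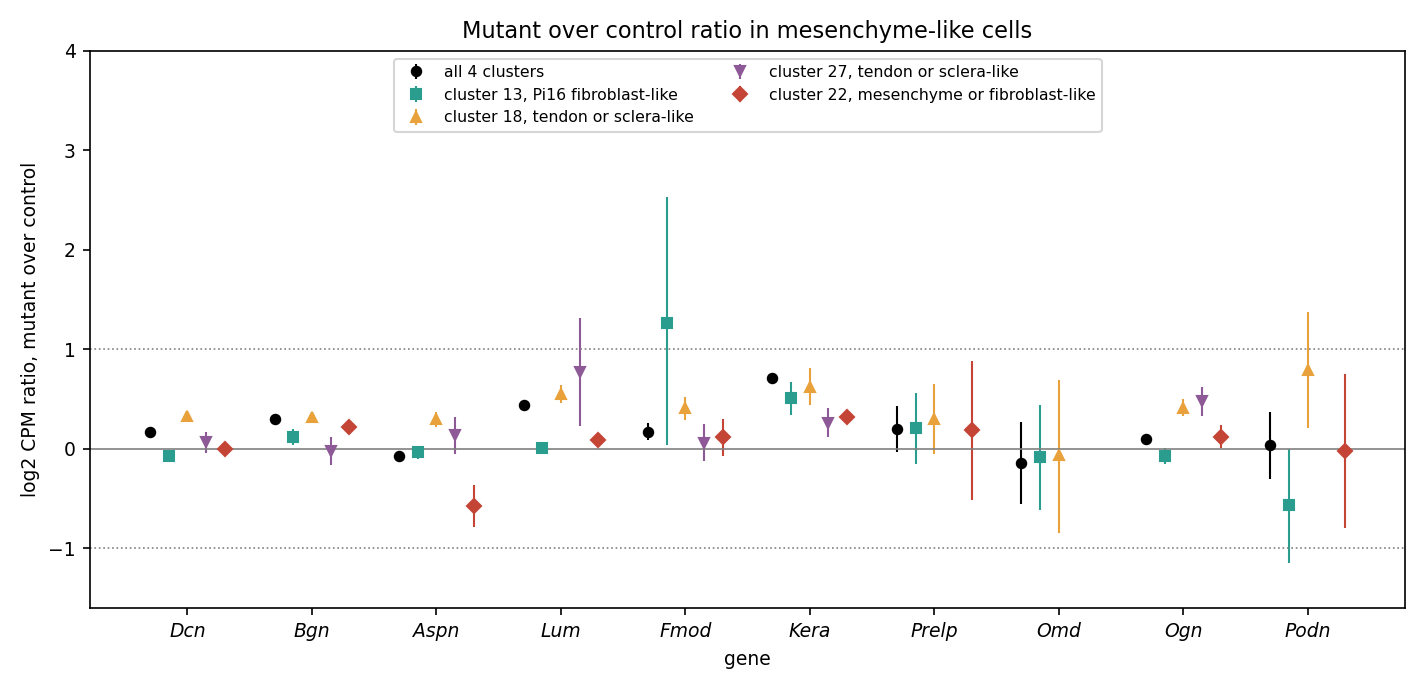
Log2 ratio of CPM, mutant over control, for each gene in all mesenchyme-like cells (black) and in each of the 4 mesenchyme clusters (colours), with 95% counting intervals as bars and dotted lines at 2-fold; points from under 20 UMIs are left out. The pooled ratios of Lum (0.44) and Kera (0.71) lay above those of cluster 22 (0.09 and 0.32), where both genes were highest.

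The mesenchyme was not uniform, and each of its 4 clusters had its own set of these genes. Cluster 13, Pi16 fibroblast-like (502 control and 229 mutant cells, led by Clec3b, Pi16, Tnxb, Dpt and Nov), combined Dcn at 4389 and 4165 CPM with Aspn at 1139 and 1112 CPM. Its Fmod was at 2.37 and 5.67 CPM, from 11 and 15 UMIs. Fmod was thus near the floor in the fibroblasts that were rich in Aspn, while Lum was at 1228 and 1235 CPM and Ogn at 810 and 769 CPM there.

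The tendon or sclera-like cells fell into clusters 18 and 27. In cluster 18 (287 and 199 cells, led by 1500015O10Rik, Acan, Pdgfrl, Tspan8 and Fmo1), Bgn reached 1997 and 2486 CPM and Fmod 314 and 415 CPM. In cluster 27 (84 and 41 cells, led by Tnmd, C1qtnf3, Cilp, Col11a2 and Scx), Fmod reached 891 and 929 CPM, Kera 1299 and 1557 CPM and Ogn 1093 and 1519 CPM. Lum was lowest in cluster 27 among the 4, at 77.9 and 133 CPM, although Kera and Dcn, on either side of it on chromosome 10, were high in the same cells.

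Cluster 22, mesenchyme or fibroblast-like (152 and 152 cells, led by the agouti gene a, Aldh3a1, Fgf21, A2m and Matn4), had the most Dcn (7702 and 7687 CPM), Lum (5043 and 5363 CPM) and Kera (2864 and 3564 CPM). Aldh3a1, an aldehyde dehydrogenase abundant in the cornea, led this cluster although the cornea had been removed. Aspn was lowest here among the 4 clusters, at 199 and 134 CPM (log2 ratio -0.57, -0.79 to -0.36), and Omd was represented by 2 and 5 UMIs. Ogn, the neighbour of Aspn and Omd, was at 518 and 563 CPM and was likewise lowest here among the 4.

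The makeup of the mesenchyme moved with the ratios. Cluster 22 gave 152 of 1025 mesenchyme-like cells in the control and 152 of 621 in the mutant. With the 4 clusters weighted equally, the log2 ratio of Lum was 0.22 in place of 0.44 and that of Kera 0.48 in place of 0.71. Within clusters, Lum was at log2 ratios of 0.01 in cluster 13 and 0.09 in cluster 22, and at 0.55 and 0.77 in clusters 18 and 27. Kera was higher in the mutant in all 4 clusters, at log2 ratios of 0.26 to 0.62.

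Outside the 4 clusters, pericyte or mural-like cells (352 and 218 cells) had Dcn at 1545 and 1189 CPM, Lum at 741 and 621 CPM and Bgn at 541 and 761 CPM. Kera was at 11.6 CPM there in the control, from 42 UMIs, and at 0.892 CPM in the mutant, from 2 UMIs. In cluster 23, Dcn was at 4644 and 4607 CPM, whereas Kera was at 74.2 and 6.25 CPM. Cluster 16, an unnamed group of 561 shallow control and 24 mutant cells, had Dcn at 1701 and 1762 CPM and was left out of the class.

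Over all kept cells, most of the genes were lower in the mutant library. Dcn was at 1010 CPM in control and 714 CPM in mutant cells, Lum at 434 and 324 CPM, and Aspn at 159 and 103 CPM. The median log2 ratio of the 10 genes was -0.33, with 9 of 10 below 0, and 0 were at least 2-fold lower or higher. Over the 17108 genes with at least 20 UMIs in all kept cells, the median was 0.05. Of these genes 6842 were below 0, and 440 were at least 2-fold lower. The median of the 10 genes was 0.33 in cells with Y-linked UMIs only and -1.68 in those with Xist UMIs only. This sum mixes the level per cell with the share of each cell class, which was lower in the mutant for mesenchyme-like cells (8.23 and 5.75%, or 13.99 and 6.99% with clusters 16 and 23), while within these cells the median ratio was 0.17 at like depth (medians of 12170 and 12418 UMIs per cell).

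Cells that should lack the genes differed between the libraries far more than the mesenchyme did. In neural retina cells (6304 control and 7229 mutant cells), Dcn was at 69.9 and 13.2 CPM, 5.29-fold lower in the mutant. Lum was at 69.9 and 7.17 CPM, 9.75-fold lower, and Kera at 23.9 and 2.28 CPM, 10.5-fold lower. Ogn (15.2 and 4.68 CPM), Bgn (17.2 and 7.28 CPM) and Omd (0.592 and 0.215 CPM, from 18 and 8 UMIs) were also more than 2-fold lower. Of the 10 genes, 6 were at least 2-fold lower and 0 at least 2-fold higher, beside 2.3% and 1.38% of the 14980 genes with at least 20 UMIs in these cells. Aspn and Fmod were 1.96-fold and 1.95-fold lower, just short of the limit.

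The same held in blood. Red blood-like cells had Dcn at 57.9 CPM and Lum at 51.4 CPM in the control, and Dcn at 2.22 CPM, from 2 UMIs, and Lum at 0 UMIs in the mutant, where 3 UMIs would be 3.33 CPM. Endothelial-like cells had Lum at 54.7 and 1.08 CPM. Summed over the 10 genes, the level in neural retina was 2.26% (2.20 to 2.31) of that in mesenchyme-like cells in the control and 0.465% (0.445 to 0.486) in the mutant. Macrophage or white blood-like cells were at 2.56 and 0.212%, and red blood-like cells at 1.54 and 0.0949%. Other classes were higher, at 4.80 and 3.17% in endothelial-like, 6.13 and 3.93% in muscle-like, 7.68 and 2.07% in lens-like and 7.83 and 3.34% in surface epithelium-like cells. The mutant level was the lower in each of these classes. These sums also hold genes described below as high in the class itself. Bgn gave 975 of 1566 control and 654 of 686 mutant endothelial-like UMIs, and Prelp 491 of 2024 in mutant neural retina. In surface epithelium-like cells, 1 mutant cell of 36572 UMIs held 94 of 96 Dcn, 79 of 80 Bgn and all 30 Lum UMIs, and 1 control cell held 154 of 290 Dcn and 114 of 205 Lum UMIs.

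Counted per cell, Lum lay within a narrow range in the control neural retina, red blood-like and lens-like cells, whose depths differed. There were 33.3 Lum UMIs per 100 retinal progenitor-like cells, 33.2 per 100 neurogenic-like, 36.1 per 100 photoreceptor-like, 34.7 per 100 amacrine or horizontal-like, 34.0 per 100 red blood-like and 36.8 per 100 lens-like cells. Other control classes departed from this range, with 43.4 in endothelial-like, 47.4 in macrophage or white blood-like, 47.6 in muscle-like, 52.9 in RPE-like and 164.0 in surface epithelium-like cells (73.4 without the cell that held most), and 19.4 in the 31 astrocyte-like cells. In the mutant the first 6 classes had 3.94, 2.69, 3.596, 4.53, 0 and 5.71 per 100 cells. Transcripts of other tissues moved the same way in neural retina. Col1a1 was at 578 and 89.1 CPM, the lens gene Cryaa at 54.6 CPM and 0 UMIs, and the summed red blood markers at 545 and 293 CPM.

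**Figure D3:**
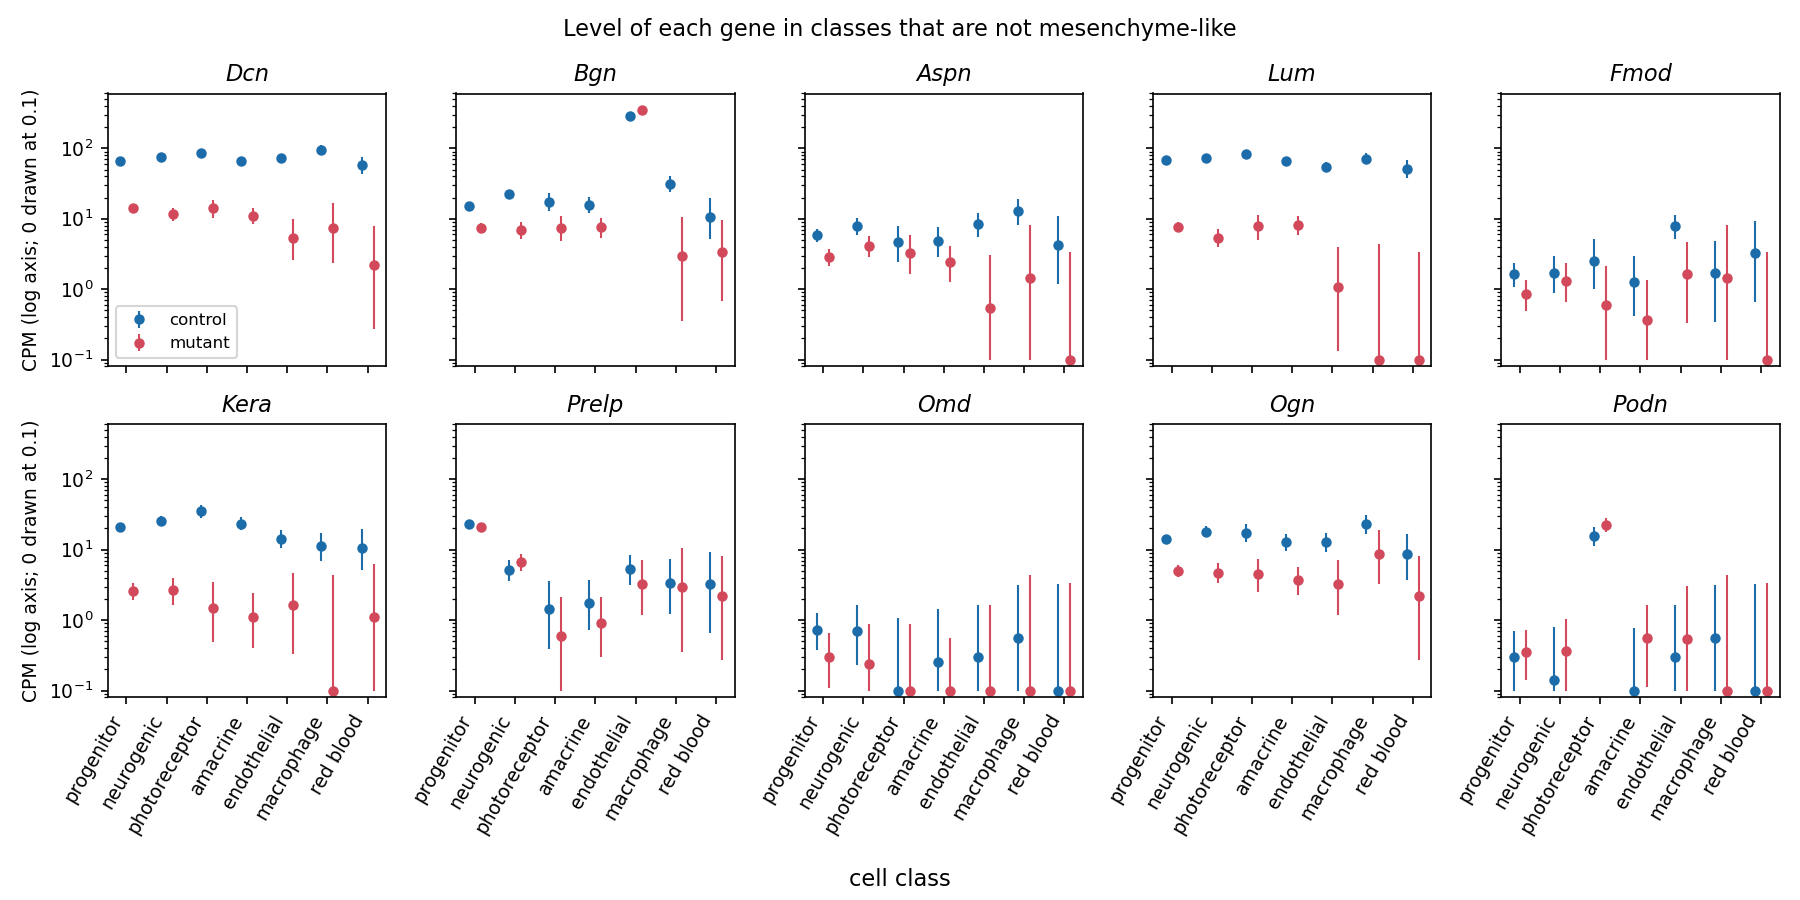
Level of each gene in 7 classes that are not mesenchyme-like, in CPM on a log axis with 95% counting intervals, in the control (blue) and the mutant (red), with 0 drawn at 0.1. Lum lay between 51.4 and 82.5 CPM in the control classes and, like Dcn and Kera, was lower in each in the mutant, while Bgn stood out in endothelial-like cells, Prelp in progenitors and Podn in photoreceptor-like cells at like levels in both libraries.

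The genes did not keep the ratio they had in mesenchyme. Control neural retina held 100 Lum UMIs (94.1 to 106) per 100 Dcn UMIs, although mesenchyme-like cells held 38.7 and even cluster 22, the cluster richest in Lum, 65.5 (64.0 to 67.0). In the mutant, neural retina held 54.3 (46.6 to 63.1) and mesenchyme-like cells 46.9. Kera was at 34.1 per 100 Dcn UMIs in control neural retina, above the 17.7 of mesenchyme-like cells but below the 37.2 of cluster 22, and in the mutant it was at 17.3, below the 25.8 of mesenchyme-like cells. The UMIs in control neural retina were thus richer in Lum, relative to Dcn, than any of the 4 mesenchyme clusters, and which cells they came from was not tested.

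The counts were then set against the depth of each cell. In control retinal progenitor-like cells, Lum was at 24.2 UMIs per 100 cells of up to 2000 UMIs, 29.3 in those of 2000 to 4000, 36.2 in those of 4000 to 8000 and 34.0 in those above 8000. Its count thus hardly followed the depth of the cell. Prelp was at 2.10, 8.46, 11.6 and 27.3 UMIs per 100 cells in the same bins, and at 2.02, 8.26, 11.03 and 22.2 in the mutant, so it grew with depth in both libraries. Control Dcn was at 23.2, 31.3, 34.1 and 33.2 UMIs per 100 cells in these bins, close to flat above 2000 UMIs. Mutant Dcn grew with depth, at 2.02, 4.61, 8.24 and 13.01.

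**Figure D4:**
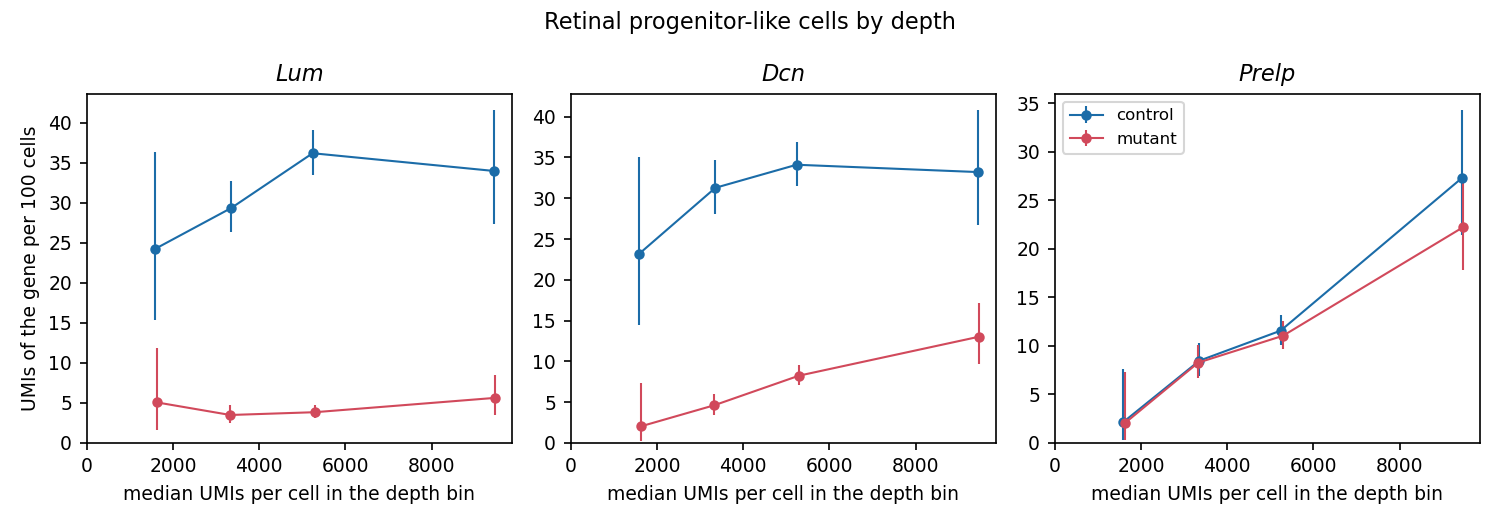
UMIs of Lum, Dcn and Prelp per 100 retinal progenitor-like cells against the median depth of 4 depth bins, in the control (blue) and the mutant (red), with 95% counting intervals. Lum stayed between 24.2 and 36.2 in the control and below 6 in the mutant, while Prelp grew with depth to 27.3 and 22.2.

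Prelp differed from the other genes in part of the neural retina, where its UMIs per cell grew with depth and its level was of the order of that in mesenchyme-like cells. Retinal progenitor-like cells had it at 23.2 CPM (20.9 to 25.6) in control and 21.3 CPM (19.4 to 23.4) in mutant cells. Neurogenic-like cells had 5.10 and 6.61 CPM, amacrine or horizontal-like cells 1.78 and 0.920 CPM and photoreceptor-like cells 1.42 and 0.597 CPM. The level was highest in the small astrocyte-like group (31 and 32 cells), at 161 CPM (125 to 204) and 152 CPM (123 to 186), with a UMI in 77.4 and 78.1% of cells. Prelp in neural retina was 46.7% of its level in mesenchyme-like cells for the control and 37.8% for the mutant, and these cells held 39.13 and 47.72% of all Prelp UMIs. Counting without regard to strand would add reads of Gm15851 to Prelp. Whether strand was used is not given in the sources used here.

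Within the neural retina, Podn stood out in 1 photoreceptor-like cluster. In cluster 19, photoreceptor-like and led by Pde6h, Syndig1l, Rcvrn, Pgc and Gnat2, with the cone opsin gene Opn1sw also among its leading genes, it was at 45.1 CPM (31.2 to 63.0) in control and 59.7 CPM (45.7 to 76.7) in mutant cells. No cell held more than 3 of these UMIs. In the photoreceptor-like cluster 12 it was at 2.90 and 4.63 CPM, with intervals of 0.599 to 8.48 and 1.70 to 10.1. Surface epithelium-like cells had more, at 78.7 and 70.0 CPM, and mesenchyme-like cells less, at 15.8 and 16.2 CPM.

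Bgn and Ogn were also high in cells outside the mesenchyme. Bgn was at 291 CPM in control and 354 CPM in mutant endothelial-like cells, where the same cells had Lum at 54.7 and 1.08 CPM. Muscle-like cells had Bgn at 241 and 237 CPM and Ogn at 187 and 119 CPM. These levels were more than 10 times those in neural retina of the same library.

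RPE-like cells, in whose lineage Rx>cre acts, numbered 516 in the control and 199 in the mutant, with medians of 2478 and 9963 UMIs. Dcn was at 162 and 56.7 CPM, 2.86-fold lower in the mutant, Lum at 82.9 and 17.0 CPM, 4.87-fold lower, and Kera at 17.3 and 3.49 CPM, 4.96-fold lower. Aspn was at 19.4 CPM and at 0.436 CPM, from 1 UMI, a 44.5-fold ratio whose log2 interval ran from -10.80 to -2.95. Of the 8 members with at least 20 UMIs, 4 were thus at least 2-fold lower and 1, Podn, at least 2-fold higher, beside 6.05% lower and 3.01% higher among the 11115 genes with at least 20 UMIs in this class. Depth moved with these ratios. In cells above 8000 UMIs, Dcn was at 162.9 UMIs per 100 control cells (143.2 to 184.6) and 104.5 per 100 mutant cells (86.3 to 125.5), and Lum at 68.9 (56.3 to 83.5) and 32.7 (22.9 to 45.3). The mutant Lum value rests on 1 cell of 25486 UMIs, which held 32 of the 36 Lum and 21 of the 115 Dcn UMIs. A control cell of 27234 UMIs held 18 of 104 Lum and 63 of 246 Dcn UMIs. In cells of at least 4000 UMIs the log2 ratio of Dcn was -0.90, short of 2-fold, and 3 members were called. The 4 became 1 among cells with Xist UMIs only and 2 among cells with Y-linked UMIs only.

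The level in neural retina has to be set beside these ratios. Control neural retina had Lum at 69.9 CPM beside 82.9 CPM in RPE-like cells, and Kera at 23.9 CPM beside 17.3 CPM. Per 100 cells, control RPE-like cells held 49.5 Lum UMIs without the cell that held most, and neural retina cells 33.7. Mutant RPE-like cells held 3.54 and neural retina cells 3.69. In the mutant, 1 RPE-like cell held 32 of the 39 Lum UMIs (82.05%), and without the cell with most Lum in each library the levels were 78.0 and 3.09 CPM, 25.3-fold lower (12.1 to 63.5). Subtraction of the neural retina level left 12.9 CPM of Lum in control and 9.84 CPM in mutant cells, and 92.2 and 43.5 CPM of Dcn, so that Dcn and Aspn, whose mutant level came out below 0, were the 2 genes at least 2-fold lower. Subtraction of the neural retina UMIs per cell left 30.02 and 13.8 CPM of Lum and 109 and 50.8 CPM of Dcn, and 3 genes, these and Aspn, were then at least 2-fold lower. Both mutant Lum values after subtraction rest on the 1 cell with 32 Lum UMIs. Without that cell, mutant RPE-like Lum lay below the mutant neural retina level, both in CPM and per cell.

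A single control cell of 27234 UMIs also held 76 of 165 Bgn, 63 of 534 Dcn, 35 of 108 Fmod and 1917 of 4250 Col1a1 UMIs of the RPE-like cells. Without the top cell of each library, Bgn was at 27.2 and 34.0 CPM in place of 50.1 and 36.2 CPM, and Dcn at 144 and 48.1 CPM. The markers of mesenchyme or fibroblasts (10 genes, 9 with a UMI in control and 6 in mutant RPE-like cells) summed to 52.5 and 32.7 CPM there, those of tendon or sclera to 140 and 52.8 CPM, and those of Pi16 fibroblasts to 133.9 and 109.9 CPM. Their part in the ratios was not tested.

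**Figure D5:**
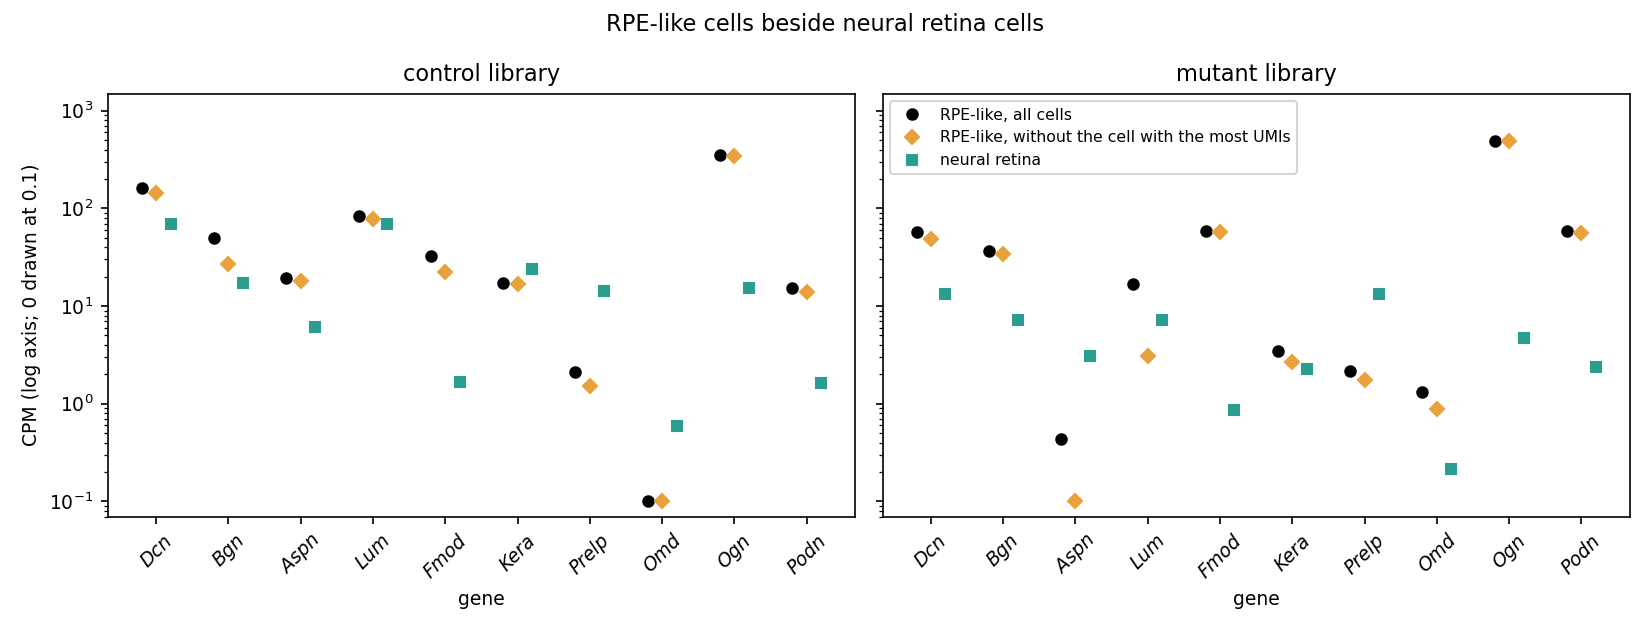
Level of each gene in RPE-like cells (black), in RPE-like cells without the cell that held the most UMIs of that gene (orange) and in neural retina cells (green), in CPM on a log axis with 0 drawn at 0.1. Ogn, Fmod and Podn stood far above neural retina in both libraries, while control Lum (82.9 CPM) lay beside it (69.9 CPM).

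Ogn, Fmod and Podn stood above the neural retina level in RPE-like cells of both libraries. Ogn was at 352 CPM (332 to 373) in control and 493 CPM (464 to 522) in mutant cells, beside 15.2 and 4.68 CPM in neural retina, and 52.33 and 62.31% of RPE-like cells held a UMI. It grew with depth, from 33.2 UMIs per 100 control cells of up to 2000 UMIs to 629.8 in those above 8000, and from 13.3 to 965.5 in the mutant. RPE-like cells gave 9.55% of control and 13.63% of mutant Ogn UMIs.

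Podn was at 15.5 CPM (11.5 to 20.4) in control and 59.3 CPM (49.8 to 70.2) in mutant RPE-like cells, 3.83-fold higher. The ratio was 3.94 (2.79 to 5.65) without the top cells. In cells above 8000 UMIs, of which the control had 151 and the mutant 110, Podn was at 29.1 UMIs per 100 cells (21.2 to 39.1) and 117.3 (97.9 to 139.3), at medians of 16095 and 16887.5 UMIs per cell. Fmod was at 32.8 and 58.9 CPM, 1.80-fold higher, and at 22.3 and 56.9 CPM without the top cells, 2.55-fold higher (1.90 to 3.44). Prelp had 7 and 5 UMIs and Omd 0 and 3 UMIs in these cells.

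Genes that build, modify or cut these proteins were listed alongside. In mesenchyme-like cells, 0 genes of the 5 lists with at least 20 UMIs were at least 2-fold lower or higher. Among other leucine-rich proteoglycans (6 of 8 measured, median log2 ratio -0.15), Tsku was at 28.0 and 23.7 CPM, Epyc, which follows Kera on chromosome 10, at 64.3 and 56.1 CPM, Ecm2 at 26.6 and 26.3 CPM and Chad at 19.5 and 20.5 CPM. Enzymes of chondroitin and dermatan sulfate synthesis (17 of 17 measured) had a median of -0.07. B4galt7, which adds the first galactose of the linker to the core, was at 24.1 and 17.2 CPM, the sulfotransferase Chst11 at 6.35 and 4.71 CPM, the epimerase gene Dsel at 47.2 and 51.0 CPM and the sulfotransferase Ust at 8.85 and 10.8 CPM.

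Keratan sulfate synthesis (6 of 7 measured, median 0.00) held the widest of these ratios. The sulfotransferase Chst1 was at 10.9 and 5.47 CPM, within rounding of the 2-fold limit but inside it, and B3gnt7, which extends the chain, at 6.93 and 13.4 CPM. Chst2 was at 42.3 and 39.3 CPM and Chst5 at 34.7 and 41.5 CPM. Collagens and their partners (15 of 15 measured) had a median of 0.23, with Col6a3 at 1381 and 1753 CPM, Col12a1 at 1387 and 1728 CPM, Tgfbi at 154 and 130 CPM and Col5a3 at 143 and 122 CPM. Proteases that cut the cores (6 of 8 measured) had a median of -0.09, with Adamts4 at 11.4 and 8.78 CPM, Adamts5 at 110.5 and 101 CPM, Mmp2 at 512 and 502 CPM and Mmp14 at 272 and 283 CPM. In neural retina, 12 of 15 collagen-list genes were at least 2-fold lower in the mutant, beside 2.3% of all genes there, and in RPE-like cells 11 of 13, beside 6.05%.

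Across the 33 clusters of at least 50 cells, both libraries together, the genes most like each member were found by Pearson correlation of log2(CPM + 1), given as a description since the clusters share libraries and depth. Dcn was most like Prrx1 (0.98), Thbs2 and Col3a1, and Lum most like Dpep1 (0.96), Apod and Dcn (0.93). Bgn was most like Emilin1, Mgp and Ccdc80, and Aspn most like Pamr1, Postn and Col3a1. Kera was most like Matn4, Col6a3 and Thbs4, and Fmod most like Egfl6, Col8a2 and Pcolce. For Ogn these were Sema3c, Capn6 and Fbln5, for Prelp Sept8 (0.85), S1pr3 and Pdzrn3, and for Podn Ptges, Epb41l1 and Rabgap1l. Among the members themselves, Dcn and Lum were the most alike pair (0.93) and Prelp and Podn the least (-0.02).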

How the data were processed

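Eye cups of 2 libraries, 1 per genotype, were profiled by 10x 3′ RNA-seq. The deposited values are unnormalised UMI counts, 1 per gene and barcode, which the authors made with Cell Ranger 7.1.0 (the matrix header names 3.1.0) on mm10, and the study analysed its cells with Seurat 4.1.1. Values here start from those counts. Barcodes with under 200 genes or over 15% mitochondrial UMIs were removed, and Scrublet (scanpy 1.11.5) doublets were removed at the expected rate (11.444 and 9.778%), because its own threshold marked 0% of control barcodes. The study's doublet limit of 2000 UMIs was an alternative only.

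Cells were clustered in Seurat 5.3.0 (R 4.3.3; integration of the libraries, 30 dimensions, 2000 variable genes, Louvain resolution 1), with 70 genes kept out, namely the members, the gene lists and sex-linked genes. A cluster was named where at least 3 markers of a class had a UMI in 10% of cells and were 2-fold above other cells, and rules for mixed clusters were set with the clusters in view. Counts were summed per library and class and given as CPM. Log2 ratios add 1 CPM, calls use the plain ratio, and a gene was measured with at least 20 UMIs in both libraries together. A count of 0 allows up to 3 counts. UMIs from 3′ ends were not divided by gene length, so levels are compared between cells and not between genes. Intervals are exact Poisson, conditional Poisson for ratios and Clopper-Pearson for shares (Python 3.11.15, numpy 2.4.6, scipy 1.17.1, pandas 2.3.3, matplotlib 3.10.9), and the ratio step was tested on simulated data.

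The members and gene lists were chosen with earlier results of these data known. Named were all members, the 2 highest and 2 lowest ratios of each list in mesenchyme-like cells among genes with at least 100 UMIs, the 3 genes most like each member with at least 500 UMIs (so not Omd), among genes with at least 1000 UMIs, and the 5 leading genes of each mesenchyme cluster. Col1a1, Cryaa, the other leading genes and the single cells were chosen after their values were seen. Alternatives were other depth, mitochondrial and doublet limits, thinning, pseudocount, minimum UMIs, clustering and sex of cells.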

Additional observations from a re-analysis of the deposited data

How the results depend on the processing

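No paired analysis was possible because each genotype had 1 library, and for the same reason no replicate could be left out. Of the 14 alternatives of the median log2 ratio of the members in mesenchyme-like cells (0.17), all were above 0. It was 0.08 at resolution 0.5, 0.30 with cells thinned to 1000 UMIs and 0.75 in cells of up to 2000 UMIs. Over all kept cells (-0.33) it was -0.66 thinned, -1.14 in cells of up to 2000 UMIs, -1.68 in cells with Xist UMIs only and 0.33 in cells with Y-linked UMIs only. These subsets differ in makeup, since mesenchyme-like cells were 243 of 888 control and 342 of 7611 mutant cells with Xist UMIs only, and 539 of 6401 and 155 of 1507 with Y-linked UMIs only. Within mesenchyme-like cells the median was 0.23 and 0.20 in the 2 subsets.

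Single ratios in mesenchyme-like cells turned as well. In cells of up to 2000 UMIs, Lum was at -0.89, Dcn at -0.41 and Aspn at 0.75, while Bgn (1.14) and Ogn (1.45) passed 2-fold without turning. Aspn was at 0.03 with no genes kept out of clustering. With Xist UMIs only, Fmod was at -0.03, Ogn at -0.06 and Omd at 0.06, and with Y-linked UMIs only Prelp was at -0.30 and Podn at -0.24. At resolution 0.5, Fmod was at -0.02, Ogn at -0.07, Podn at -0.21 and Omd at 0.07. Thinned, Prelp was at -0.17 and Omd at 1.19, and Omd also turned in 3 other settings. Bgn turned in none, and Kera in none of its 12, which do not include cells of up to 2000 UMIs.

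The neural retina level as a percentage of the mesenchyme-like level (2.26% in the control, 0.465% in the mutant) was 2.68 and 0.533 with thinning, 2.48 and 0.504 without doublet removal, 7.81 and 1.38 in cells of up to 2000 UMIs, 1.90 and 0.423 in cells of at least 4000 UMIs, 2.04 and 0.444 at resolution 0.5, and 2.61 and 0.516 with no genes kept out of clustering. It was 2.13 in the control with at most 5% mitochondrial UMIs, 2.05 in cells with Xist UMIs only, 2.42 with clusters 16 and 23 added, and 2.09 and 0.423 in cells with Y-linked UMIs only. It was higher in the control in each of these.

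In mesenchyme-like cells, 1 member in place of 0 was at least 2-fold lower among cells with Y-linked UMIs only. In RPE-like cells, 4 members were at least 2-fold lower, and this count ran from 1 to 5 over 14 alternatives. It was 1 among cells with Xist UMIs only and 2 among those with Y-linked UMIs only. Aspn and Kera had under 20 UMIs in both of these subsets and were not counted there. The count was 2 after subtraction of the neural retina level and 3 after its subtraction per cell. The log2 ratio of Lum in RPE-like cells (-2.22) ran from -8.52 to -0.36. The lower end, in cells of up to 2000 UMIs, rests on the added 1 CPM, since the mutant had 0 Lum UMIs there. The upper end, after subtraction of the neural retina level, rests on 1 mutant cell with 32 of the 39 Lum UMIs. The ratio of Dcn (-1.50) ran from -2.08 to -0.90, and both genes stayed below 0 throughout. That of Podn (1.87) ran from 1.61 to 2.41. The causes were not tested. The subtraction, the addition of clusters 16 and 23 and the removal of single cells were chosen after seeing the data. Low counts of Omd, Prelp and Podn limit their ratios.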
